A study of Saccharomyces cerevisiae with 5 samples.

Results

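The genes described here encode the machinery that moves proteins into and through the secretory pathway of the budding yeast Saccharomyces cerevisiae. The list holds 45 genes, chosen by symbol in the platform annotation, of 5583 genes named on the arrays. All 45 had a value on at least 1 of 5 arrays. On each spotted array, cDNA from RNA co-purified with tagged Yra1 (zzYra1) in an immunoprecipitation (IP) was compared with cDNA from total RNA, each in a channel of its own. Yra1 binds RNA and links mRNA to the receptor that carries it out of the nucleus. Channel 1 held the IP RNA of arrays 1 and 3, and channel 2 that of arrays 2, 4 and 5. All arrays form a single group, the zzYra1 IP set against total RNA. The labels name no strain, growth condition, time or untagged control, and no mock precipitation was analysed here. Arrays 1 and 2, and no others, have titles that differ in the slide alone, and their channels are exchanged, so they were averaged as replicate 1, and arrays 3, 4 and 5 are replicates 2, 3 and 4. Whether they came from separate cultures is not stated, so the p-values speak of array-to-array spread alone, which may be technical.

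Secreted and membrane proteins carry signal sequences that the signal recognition particle binds as they emerge from the ribosome. The particle docks at its receptor on the endoplasmic reticulum (ER), and the chain enters the ER through the Sec61 channel. Chains that enter after synthesis use the same channel with the help of the Sec62-Sec63 complex. In the ER, oligosaccharyltransferase adds N-linked glycans and the Pmt enzymes add mannose to serine and threonine. COPII vesicles carry cargo from the ER to the Golgi, and COPI vesicles carry proteins back. Small GTPases of the Arf and Rab families and SNARE proteins direct budding, targeting and fusion.

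Each value below is the log2 ratio of both channels as deposited, set against its array's median spot. Whether the ratio runs the same way on every array (IP over total RNA or the reverse) or follows the channel order is unknown. In the second case a mean as deposited mixes both directions, and turning the channel 2 arrays in sign makes all arrays run alike. "Higher" and "lower" therefore describe the deposited ratio, and the means with the channel 2 arrays turned in sign ("turned") are given beside it. The deposited log10 medians were -1.39, 1.34, -0.85, 0.30 and -0.14 on arrays 1 to 5. They were below 0 on both arrays with IP RNA in channel 1. With it in channel 2 they were above 0 on arrays 2 and 4 and below 0 on array 5. The number of spots with a value lay between 3722 on array 5 and 7591 on array 1, and the number of genes between 1717 and 5541. Of the members 45, 33, 23, 24 and 13 had a value on arrays 1 to 5. In shares this was 73.3% of members on array 2, against 68.9% of all genes, and 28.9% on array 5, against 31.0%.

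The members lay on both sides of the array median on every array. On array 1 they had a median log2 ratio of -0.056, against -0.010 over all genes, with 22 of 45 above 0 (48.9%, against 49.4% of all genes). On array 2 the median was 0.075, against 0.0026, with 17 of 33 above 0 (51.5%, against 50.2%). Array 3 gave -0.37, against -0.044, with 9 of 23 above 0 (39.1%, against 47.6%). Array 4 gave -0.18, against -0.031, with 11 of 24 above 0 (45.8%, against 48.7%). Array 5 gave 0.68, against -0.098, with 8 of 13 above 0 (61.5%, against 48.2%). The standard deviation among members was 0.869, 0.714, 0.851, 0.951 and 2.23 on arrays 1 to 5, against 0.912, 0.810, 1.07, 1.11 and 2.25 over all genes.

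**Figure D1:**
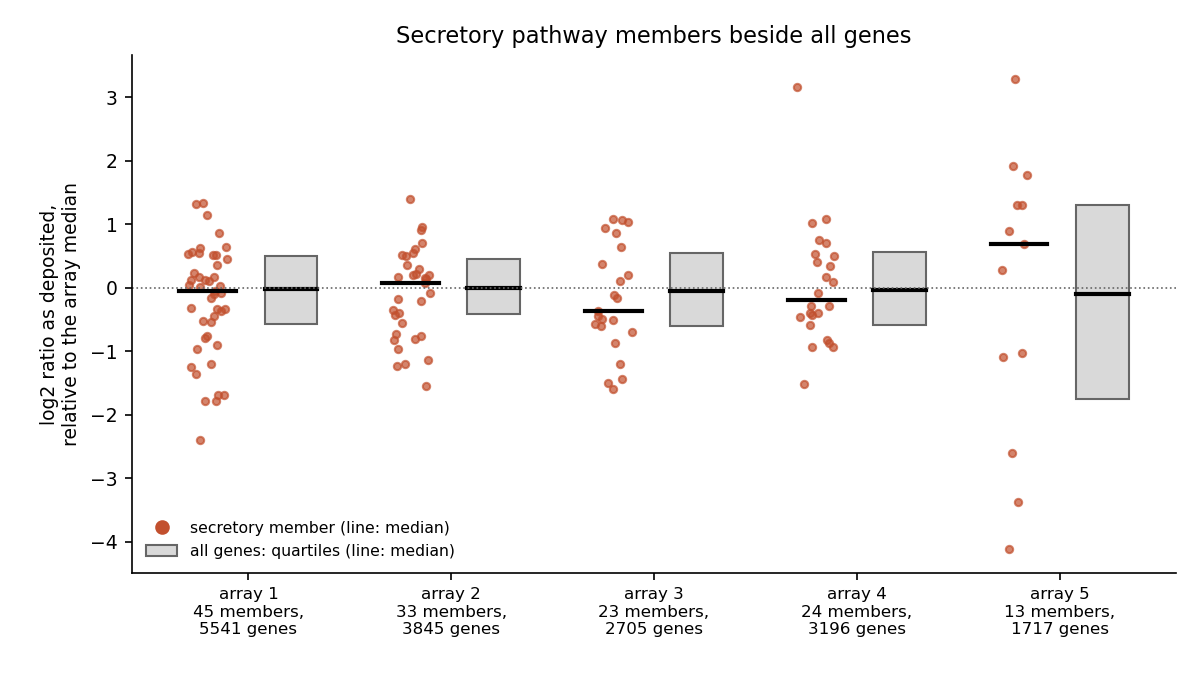
Log2 ratio as deposited, relative to the array median, of each secretory member (points, line at the median) beside the quartiles and median of all genes (grey box) on each of 5 arrays. Members scatter on both sides of 0 on every array, with medians between -0.37 and 0.68, and array 5 has the widest spread.

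Some members stood beyond a log2 ratio of 1 or -1 on every array, and the names differed between arrays, with YDR292C, SEC62 and a few others recurring. On array 1 SEC26, ARF2 and YDR292C were at 1 or above (3 of 45, with a background of 8.92% of all genes), and 8 were at -1 or below (background 14.4%), from SEC12 at -2.40 to SRP68 at -1.20. On array 2 YDR292C alone was at 1 or above (background 8.53%), and SEC62, SEC26, EMP24 and SEC23 were at -1 or below (background 6.68%). On array 3 ERV14, SEC12 and SEC63 were at 1 or above (background 13.0%), and SEC22, SEC24, STT3 and COP1 were at -1 or below (background 13.6%). On array 4 YDR292C, SEC22 and SRP72 were at 1 or above (background 14.0%), and SEC62 alone was at -1 or below (background 12.5%). On array 5 it was 5 of 13 at each end (backgrounds 29.8% and 34.8%), from ARF2 at 3.29 to SRP14 at -4.11.

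**Figure D2:**
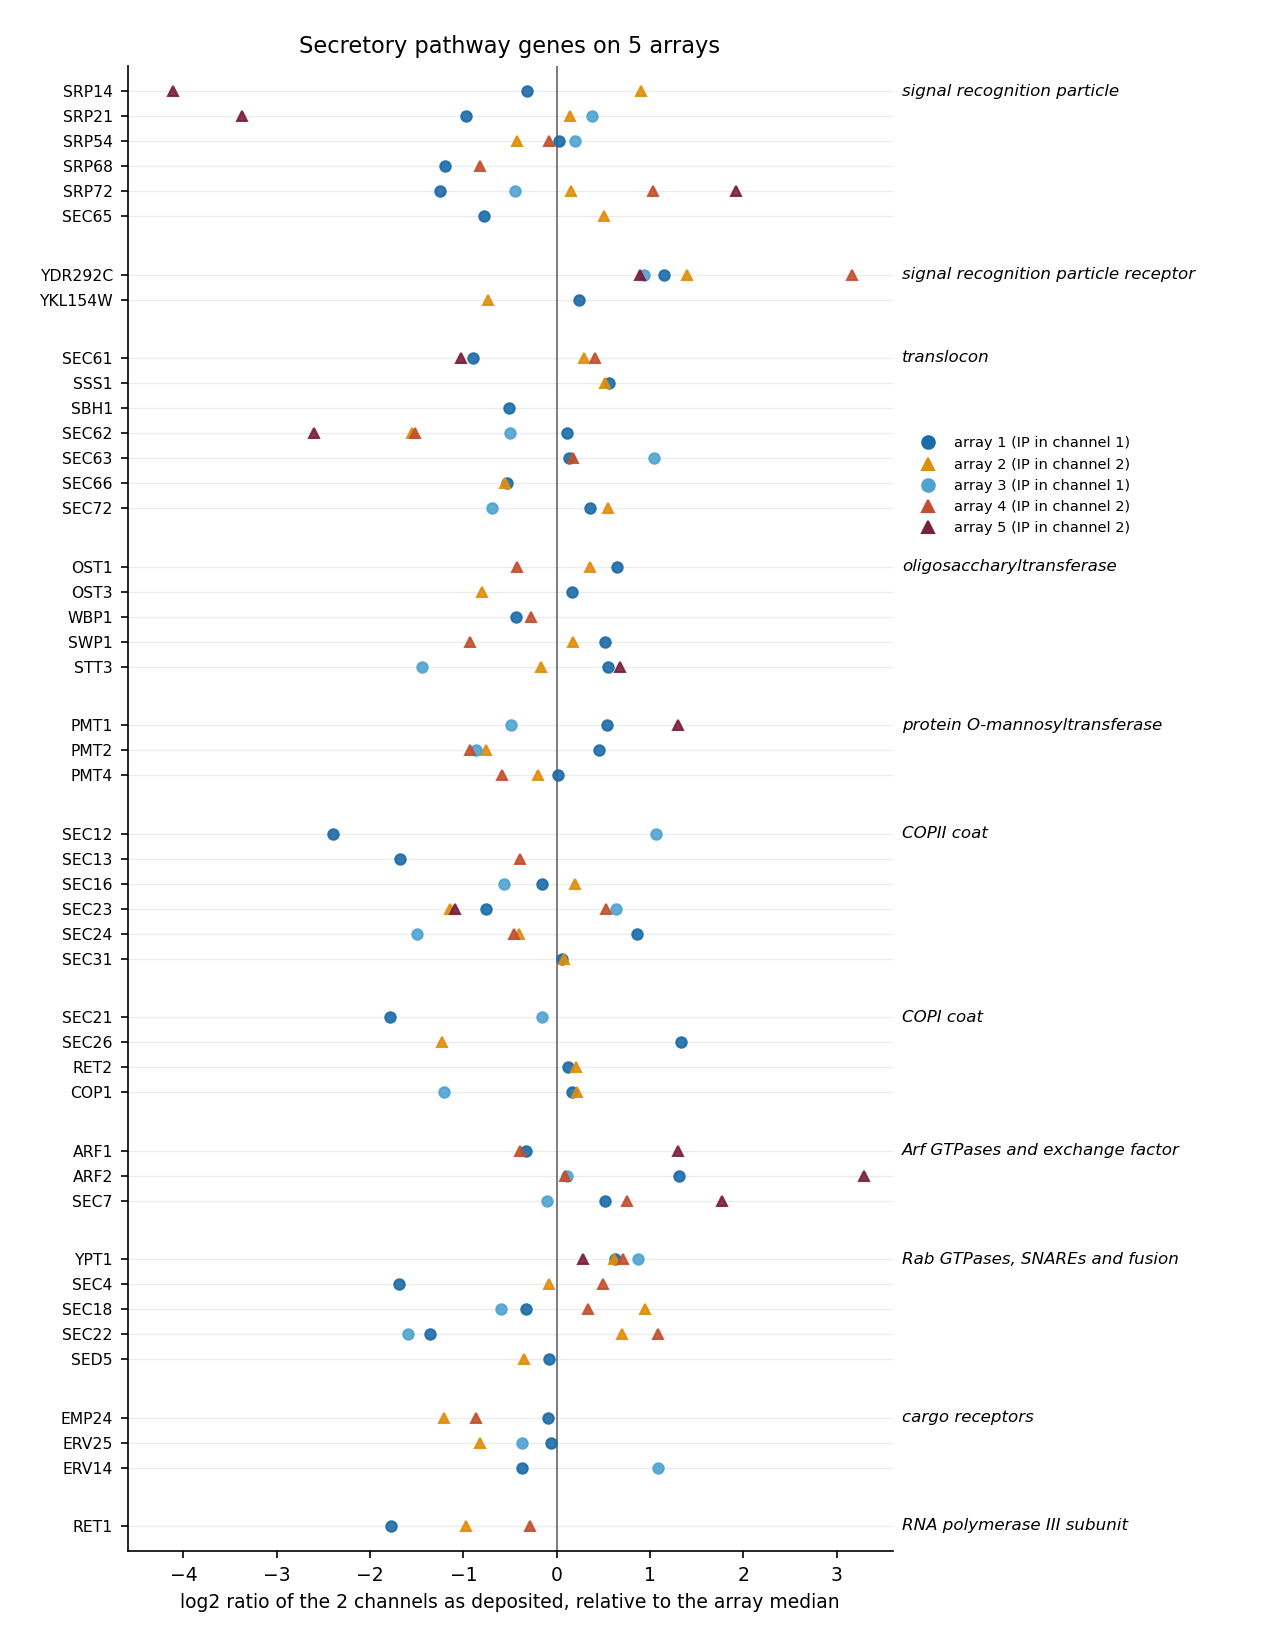
Log2 ratio as deposited, relative to the array median, of all 45 members in order of role. Each point is 1 array, with circles for IP RNA in channel 1 and triangles for IP RNA in channel 2. Most members have points on both sides of 0, while YDR292C and YPT1 lie above 0 on all 5 arrays.

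Agreement between repeat spots bears on the error within an array, and over all genes it differed between the platforms. Neighbouring spots share their place on the slide, so their agreement cannot show error that varies with position. On arrays 3 to 5 every member is printed as 2 neighbouring spots. There the repeat spots of all genes correlated with r = 0.790 (1542 genes), 0.857 (2365 genes) and 0.923 (1429 genes), as a description across genes that share slide and neighbourhood. On arrays 1 and 2, where the repeat spots of a gene lie far apart, r was 0.125 (1098 genes) and 0.309 (430 genes), and 46.8% and 47.2% of genes had spots of opposite sign. Among members the median absolute difference between repeat spots was 0.468 on array 3 (15 members), 0.231 on array 4 (17 members) and 0.346 on array 5 (10 members). It was 0.351 on array 1 (9 members) and 0.892 on array 2 (7 members), where 4 of 7 members had spots of opposite sign. Over all genes the median absolute difference was 0.706, 0.610, 0.435, 0.341 and 0.412 on arrays 1 to 5. Arrays 1 and 2 form replicate 1, so the mean of each member with 4 replicates is also given without it.

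**Figure D3:**
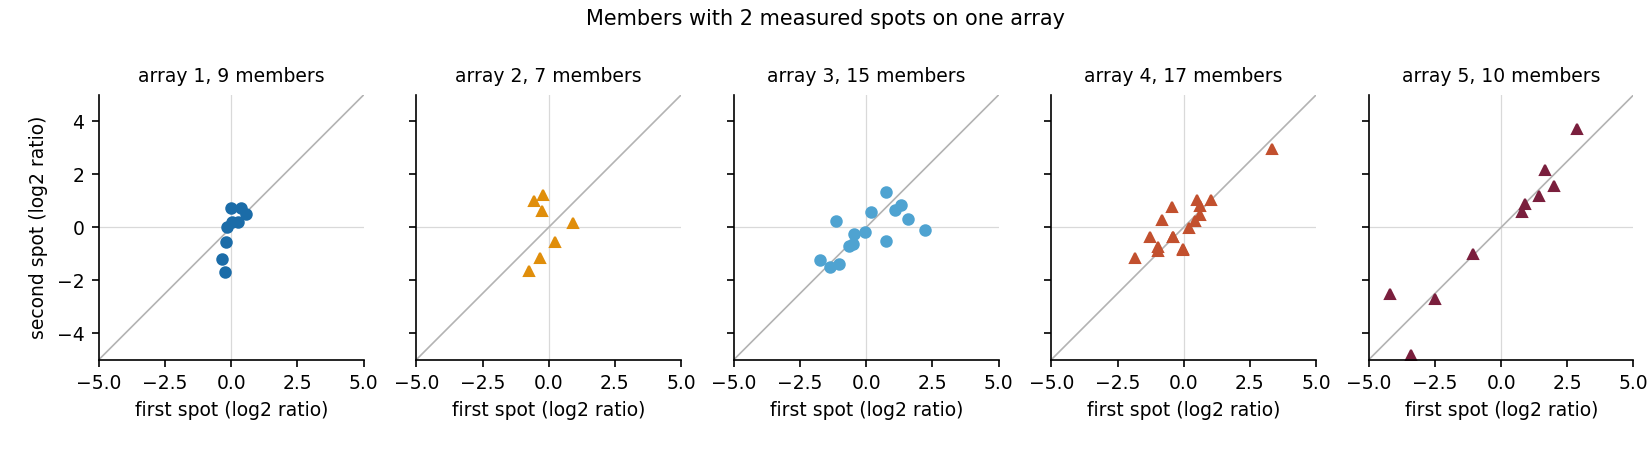
Log2 ratio of the second against the first spot of each member with 2 measured spots, by array, with the line of equality. Points of arrays 4 and 5 lie along the line, with median absolute differences of 0.231 and 0.346, and those of array 2 do not (0.892).

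For member genes the median absolute difference between a pair of arrays ran from 0.386 (arrays 2 and 4, 17 members) to 1.99 (arrays 3 and 5, 10 members). Over all 10 pairs of arrays, 92 of 167 comparisons of a member had the same sign (55.1%), against 50.7% over all genes. It was 60.3% for the 4 pairs with the IP RNA in the same channel and 52.3% for the 6 pairs with it in opposite channels, against 50.5% and 50.8% over all genes. These comparisons share arrays and genes and are given as a description.

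Among the 7 members with all 4 replicates, YDR292C had the highest mean ratio as deposited and SEC62 the lowest, and neither passed the test over all genes. Turned, SEC62 was the highest of the 7 (1.11) and SRP72 the lowest (-1.02). Of the 45 members, 7 had a value in all 4 replicates (15.6%, against 12.7% of the 5539 genes on both platforms), 11 in 3, 17 in 2 and 10 in 1. Those 7 entered limma's fit with 703 genes, and 0 of 7 had an adjusted p under 0.05 (background 0.0%). The adjusted p of the 7 ran from 0.54 to 0.892 with limma and Benjamini-Hochberg adjustment. At an unadjusted p under 0.05 there were 2 of 7, YDR292C and SEC62, with a background of 7.82%. Without replicate 1 there were 0 of 7 (background 65 of 704 genes), and without replicate 3 there were 0 of 10 (37 of 1023). YDR292C was the 1 of 9 without replicate 2 (62 of 1067) and the 1 of 13 without replicate 4 (84 of 1737). With all replicates and limma's trend and robust options there were 0 of 7 (19 of 703). In the main fit the 7 members had a median mean ratio of 0.62, against 0.042 over the 703 genes. Of them 5 of 7 lay above 0 (background 51.8%). That median belongs to these 7 and not to the list. Among the 18 members with at least 3 replicates it was -0.0056, with 9 above 0 (background 46.8%), and among the 35 with at least 2 it was -0.28, with 11 above 0 (background 45.1%). Over all genes those medians were -0.052 and -0.075. In both wider fits 0 members were called with limma (background 0.0%), YDR292C and SEC62 again being the members with an unadjusted p under 0.05 (backgrounds 4.91% and 3.79%).

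**Figure D4:**
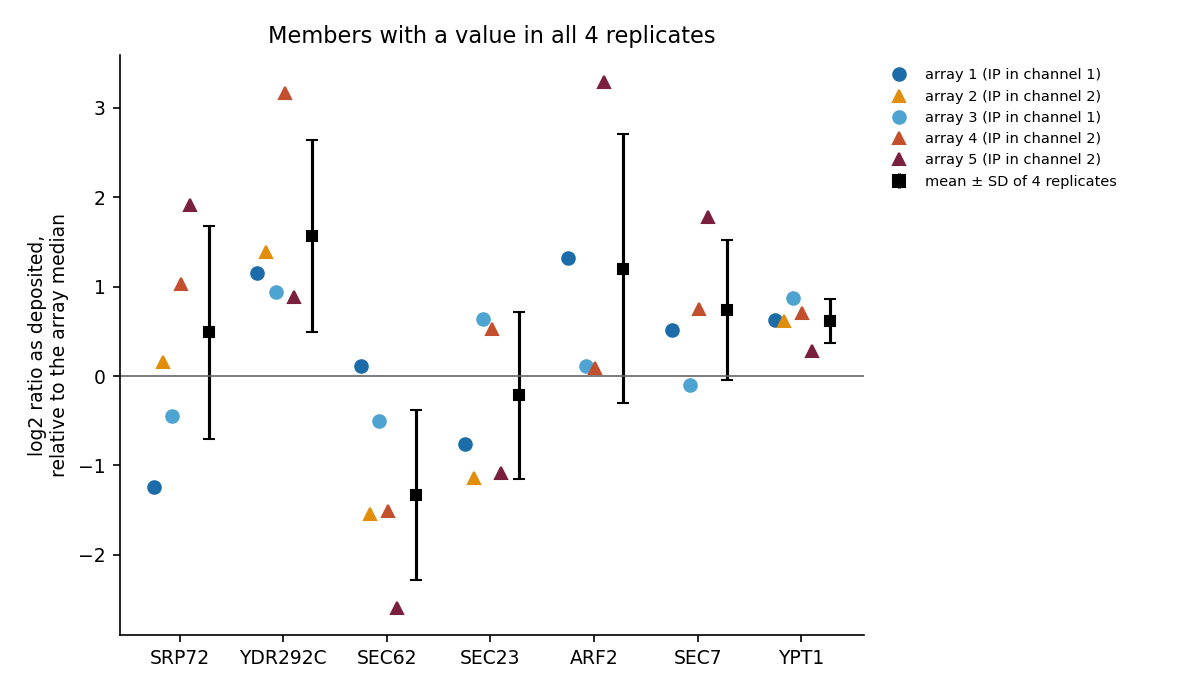
Log2 ratio as deposited, relative to the array median, of the 7 members with a value in all 4 replicates. Points are single arrays, and black squares with bars are the mean ± SD of 4 replicates. YPT1 has the narrowest spread, YDR292C lies above 0 on all 5 arrays, and SEC62 lies below 0 on 4 of 5.

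YDR292C encodes the alpha subunit of the signal recognition particle receptor, the GTPase at which the particle docks. Its log2 ratio was 1.15, 1.39, 0.94, 3.16 and 0.89 on arrays 1 to 5. All 5 values lay above 0, with array 4 far above the others. On array 4 both spots were high, at 3.35 and 2.98, and on array 5 they were 0.91 and 0.86, while on array 3 they were 1.57 and 0.30. The mean over replicates was 1.57 ± 1.08 (SD, n = 4, adjusted p = 0.54 with limma), the 45th highest of the 703 tested genes. Without replicate 3 (array 4) it was 1.03, and without replicate 1 it was 1.66. With the channel 2 arrays turned it was -0.81 ± 1.74 (SD, n = 4). YKL154W, the beta subunit that anchors the receptor in the membrane, had values on the first platform alone, 0.23 on array 1 and -0.73 on array 2.

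The 6 members of the signal recognition particle itself showed no common sign. SRP72, an RNA-binding subunit, had -1.25, 0.15, -0.45, 1.03 and 1.92 on arrays 1 to 5. Its sign followed the channel of the IP RNA, below 0 on both channel 1 arrays and above 0 on all 3 channel 2 arrays. Of the 475 genes with values on all 5 arrays 2.74% did so in this direction, and 1.26%, with 0 members among them, in the other. As deposited the mean was 0.49 ± 1.19 (SD, n = 4, adjusted p = 0.759 with limma), and 0.012 without replicate 4 and 0.83 without replicate 1. Turned, it was -1.02 ± 0.64 (SD, n = 4, adjusted p = 0.923 with limma).

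SRP21, another subunit of the particle, had -0.97, 0.14, 0.38 and -3.37 on arrays 1, 2, 3 and 5. Both spots on array 5 were low, at -4.21 and -2.54, though 1.67 apart. The mean of -1.14 ± 1.98 (1.07 ± 2.05 turned, SD, n = 3) rested on array 5. SRP54, the GTPase that binds the signal sequence, stayed near 0, at 0.027, -0.42, 0.20 and -0.085 on arrays 1 to 4, with a mean of -0.029 ± 0.20 (0.17 ± 0.074 turned, SD, n = 3). SRP14 had the lowest ratio of any member as deposited, -4.11 on array 5 with spots at -3.40 and -4.82, against -0.32 and 0.91 on arrays 1 and 2. SRP68 was below 0 on both arrays that measured it, and SEC65 had opposite signs on arrays 1 and 2. Of 20 values for the particle, 9 lay above 0 (background 49.1% of all values).

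Among the translocon genes SEC62 had the lowest mean, and the other members lay on both sides of 0. SEC62, a membrane subunit for translocation after synthesis, had 0.12, -1.55, -0.50, -1.51 and -2.60 on arrays 1 to 5. Arrays 2, 4 and 5 share their channel assignment and so run alike under either reading, and their values were all lower than both others. There SEC62 was the single member of 6 below 0 throughout (background 11.6% of 735 genes), and SRP72, YDR292C and YPT1 were above 0 throughout (background 17.4%). Repeat spots of SEC62 were -1.85 and -1.18 on array 4 and -2.50 and -2.70 on array 5. The mean was -1.33 ± 0.95 (SD, n = 4, adjusted p = 0.612 with limma), the 22nd lowest of the 703 genes. Without replicate 4 it was -0.91 and without replicate 1 it was -1.54. Turned, it was 1.11 ± 1.30 (SD, n = 4).

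SEC63, which works with SEC62 and recruits the ER chaperone Kar2, had 0.13, 1.04 and 0.17 on arrays 1, 3 and 4, a mean of 0.45 ± 0.52 (0.33 ± 0.63 turned, SD, n = 3). Its spots on array 4 were of opposite sign, -0.43 and 0.77. SEC61, the channel itself, had -0.90, 0.29, 0.41 and -1.03 on arrays 1, 2, 4 and 5, with 2 values on each side of 0. SEC66 and SEC72, smaller subunits of the Sec63 complex, had -0.54 and -0.56 (SEC66, arrays 1 and 2) and 0.36, 0.55 and -0.69 (SEC72, arrays 1 to 3). SSS1, the small essential partner of SEC61, had 0.56 and 0.52 on arrays 1 and 2. SBH1, the third channel subunit, had a single value of -0.52. Of 20 translocon values 10 lay above 0 (background 49.1% of all values).

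Glycosylation genes had no member with all 4 replicates. STT3, the catalytic subunit of oligosaccharyltransferase, had 0.55, -0.17, -1.44 and 0.68 on arrays 1, 2, 3 and 5. Repeat spots were close together on array 3 (-1.39 and -1.49) and on array 5 (0.77 and 0.60). Arrays 3 and 5 hold the IP RNA in opposite channels. The other subunits, OST1, OST3, WBP1 and SWP1, ranged from -0.93 (SWP1, array 4) to 0.64 (OST1, array 1). All 3 of them measured on array 4 were below 0. Of 14 oligosaccharyltransferase values 7 lay above 0 (background 49.1% of all values).

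Among the O-mannosyltransferases, PMT2 had 0.45, -0.76, -0.86 and -0.93 on arrays 1 to 4, and all but array 1 were low. Its mean was -0.65 ± 0.43 (0.22 ± 0.95 turned, SD, n = 3), or -0.15, -0.86 and -0.93 by replicate, and its spots on array 4 were -0.97 and -0.89. PMT1, which works with PMT2 as a complex, had 0.54, -0.49 and 1.30 on arrays 1, 3 and 5, a mean of 0.45 ± 0.90 (-0.42 ± 0.92 turned, SD, n = 3). Arrays 1 and 3 measured both genes. On array 1 they were at 0.54 (PMT1) and 0.45 (PMT2), and on array 3 at -0.49 (PMT1) and -0.86 (PMT2). PMT4, which acts on membrane proteins, had 0.018, -0.20 and -0.58 on arrays 1, 2 and 4.

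Of 18 COPII values 7 lay above 0 as deposited and 9 with the channel 2 arrays turned (backgrounds 49.1% and 49.8% of all values). SEC23, the coat subunit that activates the GTPase Sar1, had -0.76, -1.14, 0.64, 0.53 and -1.09 on arrays 1 to 5. Arrays 3 and 4 were high and the other 3 low, and the mean was -0.22 ± 0.93 (SD, n = 4, adjusted p = 0.892 with limma). Turned, it was 0.35 ± 0.69 (SD, n = 4). Without replicate 1 the mean was 0.027 and without replicate 4 it was 0.073. SEC24, the cargo-binding partner of SEC23, had 0.87, -0.40, -1.49 and -0.46 on arrays 1 to 4, a mean of -0.57 ± 0.87 (-0.13 ± 1.18 turned, SD, n = 3). On arrays 1, 3 and 4 these partners had opposite signs, and on array 2 both were below 0. SEC12, the exchange factor that starts coat assembly, was the lowest member on array 1 (-2.40) and stood at 1.07 on array 3, where its spots were 2.23 and -0.098, the widest gap of any member. SEC13, an outer coat subunit shared with the nuclear pore, had -1.68 and -0.40 on arrays 1 and 4. SEC31, its partner, had 0.053 and 0.075 on arrays 1 and 2. SEC16, the scaffold of ER exit sites, stayed between -0.56 and 0.20.

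COPI genes were measured mostly on the first platform. SEC26, the beta subunit, was the highest member on array 1 (1.34) and the second lowest on array 2 (-1.23). SEC21, the gamma subunit, had -1.78 and -0.15 on arrays 1 and 3. RET2, the delta subunit, had 0.12 and 0.21 on arrays 1 and 2, and its repeat spots on array 2 were -0.57 and 0.99. COP1 (YDL145C), the alpha subunit, had 0.17, 0.21 and -1.21 on arrays 1, 2 and 3. Of 9 COPI values 5 lay above 0 (background 49.1% of all values). RET1 is also an older name of COP1, but the annotation's RET1 is YOR207C, which encodes a large subunit of RNA polymerase III. Its values, -1.78, -0.97 and -0.29 on arrays 1, 2 and 4, are kept among the 45 by the rule and are not counted with the coat. Without it the member medians of arrays 1, 2 and 4 were -0.019, 0.11 and -0.085.

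Of 11 values in the Arf group, from 3 genes, 8 lay above 0 as deposited and 4 with the channel 2 arrays turned. The backgrounds were 49.1% and 49.8% of all values, and the group's medians were 0.52 and -0.11. ARF1 and ARF2 encode near-identical GTPases that recruit COPI, and hybridisation between the copies was not tested. ARF2 had 1.31, 0.11, 0.089 and 3.29 on arrays 1, 3, 4 and 5, with no value on array 2. Arrays 1 and 5 were high and arrays 3 and 4 near 0, and the spots of array 3 had opposite signs (0.75 and -0.53). The mean was 1.20 ± 1.51 (SD, n = 4, adjusted p = 0.622 with limma), with array 1 alone as replicate 1. Without replicate 4 it was 0.51, without replicate 1 it was 1.16, and turned it was -0.49 ± 1.97 (SD, n = 4).

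ARF1 had -0.33, -0.39 and 1.30 on arrays 1, 4 and 5, a mean of 0.19 ± 0.96 (-0.41 ± 0.85 turned, SD, n = 3). As deposited it was lower than ARF2 on all 3 arrays that measured both, an order that reverses on arrays 4 and 5 if these are turned. SEC7, the exchange factor that loads Arf with GTP at the Golgi, had 0.52, -0.11, 0.75 and 1.77 on arrays 1, 3, 4 and 5. Spots of SEC7 lay within 0.53 of each other on each second-platform array. Its mean was 0.74 ± 0.78 (SD, n = 4, adjusted p = 0.674 with limma), with array 1 alone as replicate 1. It was 0.39 without replicate 4, 0.81 without replicate 1 and -0.53 ± 0.98 (SD, n = 4) with the channel 2 arrays turned.

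YPT1, the Rab GTPase of ER-to-Golgi traffic, gave the most even values of any tested member as deposited. Its log2 ratio was 0.63, 0.61, 0.87, 0.71 and 0.28 on arrays 1 to 5. All 5 lay above 0, and array 5 was the lowest. Of the 703 tested genes 9 had a smaller SD over replicates than the 0.248 of YPT1, and the median SD was 1.22. The mean was 0.62 ± 0.25 (SD, n = 4, adjusted p = 0.698 with limma), and between 0.54 and 0.73 with each replicate left out in turn. With the channel 2 arrays turned it was -0.028 ± 0.67 (SD, n = 4), and the SD of SRP72 was then smaller (0.642, against 0.666 for YPT1). YDR292C and YPT1 were the 2 of 5 members above 0 on all 5 arrays (background 5.26% of 475 genes), and 0 of 5 were below 0 throughout (background 3.37%). On arrays 3 to 5 the spots of YDR292C (4497 and 4498) are numbered close to those of YPT1 (4501 and 4502). Error that varies with position may be shared by these genes and was not tested. With replicates in place of arrays, YDR292C, SEC62, ARF2 and YPT1 had 1 sign throughout, 4 of 7 (background 15.1%). Turned, SRP72 alone did, 1 of 7 (background 8.96%).

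The other targeting and fusion genes were less even. SEC22, a SNARE of ER-Golgi vesicles, had -1.36 and -1.59 on arrays 1 and 3, with IP RNA in channel 1, and 0.70 and 1.09 on arrays 2 and 4, with IP RNA in channel 2. SEC18, the ATPase that takes SNARE complexes apart, had -0.33 and -0.60 against 0.95 and 0.34 on the same arrays. In both genes the sign followed the channel, as in SRP72, and they are named here after their values were seen. SRP54 followed it in the other direction, at 0.027, -0.42, 0.20 and -0.085 on arrays 1 to 4. The share of all genes with either pattern on arrays 1 to 4 was not counted. Turned, SEC22 had -1.24 ± 0.31 and SEC18 -0.53 ± 0.16, and as deposited -0.28 ± 1.34 and 0.018 ± 0.53 (SD, n = 3 each). SEC4, the Rab GTPase of secretory vesicles at the plasma membrane, had -1.69, -0.084 and 0.50 on arrays 1, 2 and 4. SED5, the Golgi SNARE, had -0.087 and -0.34 on arrays 1 and 2.

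Of 8 cargo receptor values, from 3 genes, 7 lay below 0 and 1 above as deposited. With the channel 2 arrays turned 4 lay above 0 (backgrounds above 0 49.1% and 49.8% of all values). EMP24 and ERV25 encode p24 proteins that work as a complex in COPII vesicles. EMP24 had -0.093, -1.20 and -0.87 on arrays 1, 2 and 4. ERV25 had -0.056, -0.82 and -0.37 on arrays 1, 2 and 3. Neither had a value above 0 as deposited. Arrays 1 and 2 measured both genes, which were near 0 on array 1 and low on array 2. ERV14, which loads membrane proteins into COPII vesicles, had -0.37 on array 1 and 1.09 on array 3, where its spots were 1.32 and 0.85. Turned, the median of the 8 values was 0.38, against -0.37 as deposited.

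The sign of the tested means depended on the direction of the ratio. With the channel 2 arrays turned all 7 changed sign, 2 of 7 lay above 0 (background 49.4%), 0 of 7 had an unadjusted p under 0.05 (background 2.42%), and 0 of 7 were called (background 0.0%). Of the 5 members on all arrays, YDR292C and YPT1 had 1 sign as deposited and SRP72 had 1 sign once turned. Within the arrays that run the same way under either reading, 11 of 23 members had 1 sign on both channel 1 arrays, 5 above 0 (background 22.2%) and 6 below (background 26.6%).

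**Figure D5:**
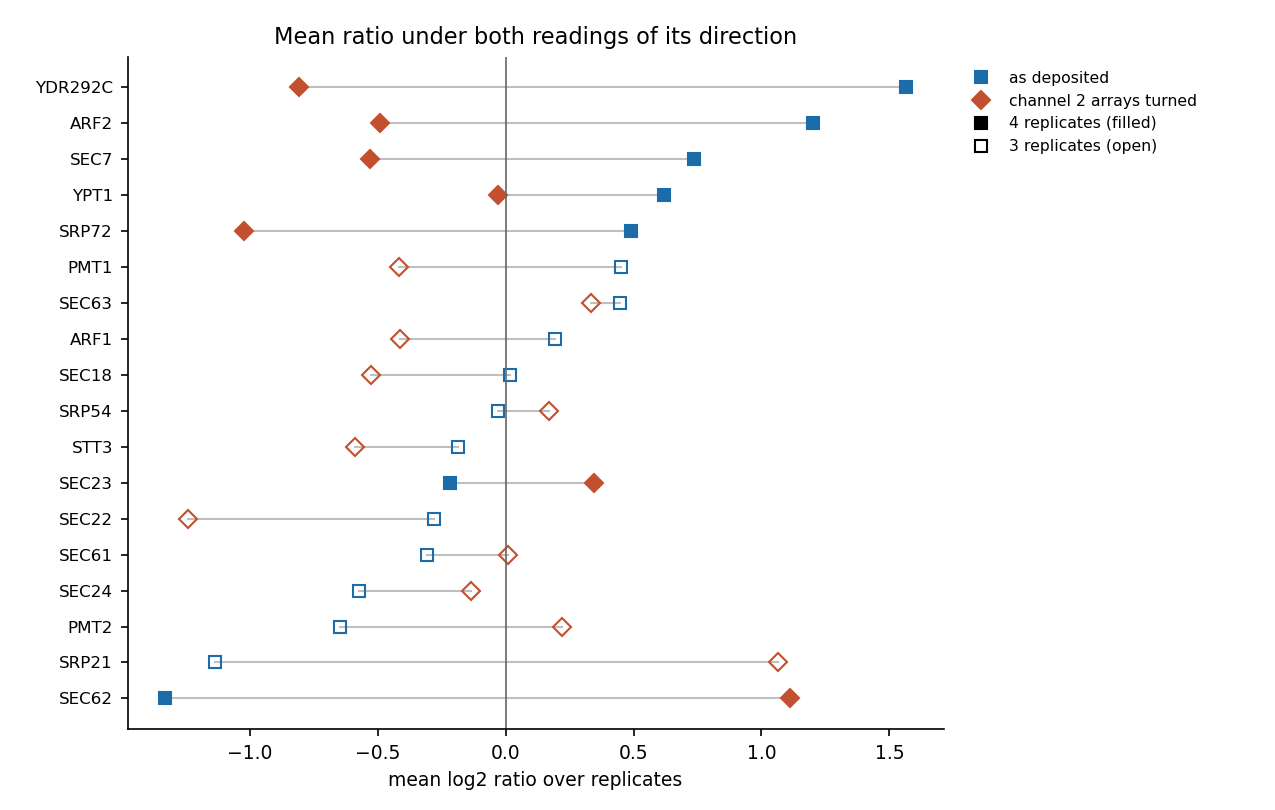
Mean log2 ratio over replicates of the 18 members with at least 3 replicates, as deposited (squares) and with the channel 2 arrays turned in sign (diamonds), filled for 4 replicates and open for 3. The means of YDR292C (1.57 and -0.81) and SEC62 (-1.33 and 1.11) change sign, while SEC63 keeps its sign (0.45 and 0.33).

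Other genes of the pathway were also read on the same scale. Of 127 further genes for translocation, N- and O-glycosylation, ER exit, COPI and Arf regulation, tethering, fusion and exocytosis, 18 had all 4 replicates. Of these, 0 were called in either direction with limma (background 0.0%), and 0 had an unadjusted p under 0.05. Their median mean ratio was 0.29, with 10 above 0 (background 51.8%), and among the 54 with at least 3 replicates it was -0.20, with 22 above 0 (background 46.8%). Turned, the median of the 18 was -0.044, with 9 above 0 (background 49.4%), and without replicate 2 it was -0.26 over 28 genes. The highest as deposited was GEA1, an exchange factor for Arf, at 1.20 ± 2.41 (SD, n = 4), which rested on 4.59 on array 4 and was -0.88 turned. The lowest was MNN5, a Golgi mannosyltransferase, at -1.84 ± 4.01 (SD, n = 4), which rested on -7.68 on array 5 and was 1.37 turned. Turned, the highest was SSH1, a homologue of the Sec61 channel, at 1.61, and the lowest GEA1.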

How the data were processed

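RNA co-purified with zzYra1 and total RNA were compared on 5 spotted 2-channel arrays. The authors deposited log10 ratios of both channels per spot. Scanner, filters and normalization are not stated. The base was settled from the numbers themselves. With base 10, 0.407% to 17.3% of the linear ratios, with the larger channel on top and times 100, were whole within 0.001, more than with base 2 (0.134% to 0.246%) or base e (0.179% to 0.307%) on every array. Depth does not apply, and the number of arrays limits the precision. Here each deposited log10 value was put on the log2 scale and centred on its array's median. GEO's platform annotation, which is old, gave the gene of each spot. Its gene identifiers were matched to RefSeq (assembly R64) for current symbols, which held all but 5 of 5583 genes. Spots of a gene were averaged. All 45 members matched. An ID listed on 2 rows was taken from the row with a value. The 703 genes with values in 4 of 4 replicates were compared with 0 by limma 3.58.1 in R 4.3.3 (lmFit, eBayes, Benjamini-Hochberg, threshold 0.05), fitted on all genes. The limma script was tested on simulated data. Python 3.11.15, numpy 2.4.6, pandas 2.3.3 and matplotlib 3.10.9 did the rest.

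The members, the wider pathway list and the naming rule were chosen with earlier results of these data known. Every member with 4 replicates is given on every array, as are the 3 highest and 3 lowest means among members with 3 replicates, ARF1 and ARF2, and the highest and lowest tested gene of the wider list. Of the others the highest and lowest on each array are named, and further ones to complete their role. YDR292C and YKL154W encode the receptor subunits of the signal recognition particle and are given by systematic name. A random block for arrays 1 and 2 could not be fitted, since a single pair of arrays shares it. No sequence is printed, because none was at hand.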

Additional observations from a re-analysis of the deposited data

Results flagged for a closer look

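YDR292C, the signal recognition particle receptor subunit, had 1 replicate far from the other 3, with 3.16 in replicate 3 (array 4), against 1.27, 0.94 and 0.89 in replicates 1, 2 and 4. Its gap to the nearest replicate, divided by the range of the replicates, was 0.8312, only just above Dixon's critical value at 95%. It was 1 of 9 values tested this way, the 7 tested members and 2 medians over members, and chance flags about 1 in 20. Both spots on array 4 were high (3.35 and 2.98).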

How the results depend on the processing

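Under the 17 alternatives run, 0 genes were called with limma, and the adjusted p of the 7 tested members stayed between 0.421 and 0.996. Using the 704 genes of the second platform alone gave the same fit as leaving out replicate 1. Some alternatives left the mean of every tested member as it was. These were the fits with at least 3 and 2 replicates, the median of spots, and limma's trend and robust options. With these and the repeated second-platform fit counted in, the sign of a tested mean was kept in 102 of 113 results for single members. With the channel 2 arrays turned it reversed in all 7, to -0.81 for YDR292C, -1.02 for SRP72, 1.11 for SEC62, 0.35 for SEC23, -0.49 for ARF2, -0.53 for SEC7 and -0.028 for YPT1. SEC23 also reversed with the position trend removed (0.12) and on the second platform alone (0.027), and ran from -0.50 to 0.073 with 1 replicate left out. With the position trend removed the others were 1.31 for YDR292C, 0.019 for SRP72, -0.69 for SEC62, 0.63 for ARF2, 0.14 for SEC7 and 0.40 for YPT1, all but YDR292C smaller by over 1.5 times. The cause was not tested.

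The median of the 7 members, 0.62 with 5 above 0, was -0.49 with 2 above 0 when the channel 2 arrays were turned, and 0.14 with the position trend removed. Several alternatives changed which members were tested. It was 0.28 with 3 of 5 above 0 when all arrays counted singly, and 0.21 with 3 of 6 on the channel 2 arrays alone. It was -0.0056 with 9 of 18 for at least 3 replicates, and -0.28 with 11 of 35 for at least 2. Without array 1, 3 of 5 lay above 0. With 1 replicate left out the median ran from 0.018 to 0.81. The count above 0 was 6 of 7, 6 of 9, 6 of 10 and 8 of 13 without replicates 1, 2, 3 and 4. In the wider list the count above 0, 10 of 18, was 22 of 54 and 40 of 106 with at least 3 and 2 replicates. Without replicates 1, 2, 3 and 4 it was 9 of 18, 11 of 28, 14 of 27 and 20 of 35. The median of that list then ran from -0.26 to 0.20, against 0.29. It was 0.013 with the position trend removed. With the channel 2 arrays turned, the median of all array values changed sign for RET1 (0.29, against -0.97 as deposited), the Rab and SNARE group (-0.55, against 0.31), cargo receptors (0.38, against -0.37), the Arf group (-0.11, against 0.52), O-mannosyltransferases (0.33, against -0.35), COPI (-0.15, against 0.12) and oligosaccharyltransferase (0.22, against -0.00037). Each ratio already sets IP RNA against total RNA on the same array. No further pairing applied, because the arrays form a single group. Values at the edge of detection could not be examined, since no channel intensities were used.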
